A study of Mus musculus with 12 samples.

Results

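Annexins are proteins that bind acidic phospholipids in membranes when calcium rises. The genes described here are Anxa1, Anxa2, Anxa3, Anxa4, Anxa5, Anxa6, Anxa7 and Anxa11, 8 of the 51467 genes in the deposited count table. They were found by matching gene identifiers to GENCODE mouse symbols. The family was chosen by the rise of Anxa3, one of the largest in the knockout, and the knockout values of Anxa3 are given as a description without a test. Counts of tested members cover the other 7.

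The samples were mouse embryonic stem cells (ESCs), either wild-type (WT) or DGCR8 KO. DGCR8 is the partner of Drosha that is needed to process most microRNA (miRNA) precursors in the nucleus. Per the methods of the study, the wild-type cells were the V6.5 line, the knockout was an earlier made line, and cells grew in serum with LIF and 2i inhibitors. All 4 groups were labelled for 30 min with 500 uM 4-thiouridine (4sU), a uridine analogue that growing transcripts take up. From each genotype there were 3 libraries of captured 4sU RNA, read as nascent RNA, and 3 of rRNA-depleted total RNA, read as steady-state RNA. Each genotype is 1 line, so differences between lines and the loss of Dgcr8 cannot be told apart. The labels do not say that the 3 replicates were separate cultures, and p-values measure the spread between these libraries only.

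Each annexin has a conserved core of repeats that carries the calcium sites, and a variable N-terminal tail that recruits partners such as S100 proteins. Annexins are known for roles in membrane traffic, links between membrane and actin, and sealing of plasma membrane wounds. MiRNAs pair through their seed, bases 2 to 8, with sites in the 3′ UTR of an mRNA, and lower its stability or translation. The ESC-enriched cell cycle (ESCC) family is a main miRNA group of mouse ESCs.

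The mature sequences of 6 miRNAs from 5 seed families known in ESCs are shown because their seeds set which 3′ UTR letters were searched. They were taken from RefSeq (GRCm38.p6), 5′ to 3′, with the seed in capitals. The first 2 belong to the ESCC family and share a seed.
mmu-miR-294-3p: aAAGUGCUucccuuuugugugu
mmu-miR-302d-3p: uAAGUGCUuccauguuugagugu
mmu-miR-93-5p: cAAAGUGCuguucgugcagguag
mmu-miR-25-3p: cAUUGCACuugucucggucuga
mmu-miR-16-5p: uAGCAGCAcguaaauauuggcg
mmu-miR-130a-3p: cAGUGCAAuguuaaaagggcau

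For each family, the sense strand of the longest annotated 3′ UTR was searched for the heptamer complementary to bases 2 to 8, and for the match to bases 2 to 7 followed by A. For the ESCC family these were AGCACTT and GCACTTA. None of the 8 annexins held either heptamer, against 21.3% of the 11813 tested protein-coding genes with a 3′ UTR. None of the 19 annexin transcripts with a 3′ UTR held one. Searched in the same way, the miR-17 family (GCACTTT or CACTTTA) had a match in 22.4% of genes, the miR-25 family (GTGCAAT or TGCAATA) in 13.8%, the miR-16 family (TGCTGCT or GCTGCTA) in 28.7% and the miR-130 family (TTGCACT or TGCACTA) in 16.2%. Heptamers of neighbouring families overlap in part. The longest 3′ UTRs of the annexins ran from 286 bases in Anxa1 to 1219 bases in Anxa7, and 7 of 8 were shorter than the median of 1202 bases. The shares were not adjusted for length.

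Of the 8, Anxa3 was the member with a match to any of the 5 families. Its matches lay in different transcripts, which gene counts do not separate. They are shown on the plus strand of mm10 with the heptamer in capitals. The first lies in the 406-base 3′ UTR of the APPRIS principal transcript and the second in the longer, 882-base 3′ UTR of a transcript that ends further upstream.
Anxa3, miR-25 family match, chr5:96845688-96845717: ggcatcgttcaGTGCAATggcaaaaatgaa
Anxa3, miR-130 family match, chr5:96825647-96825676: gaccttcacacTTGCACTgtggtgctccca
A match of letters is not evidence of a bound site, and a lack of one says only that these letters are absent from the annotated 3′ UTR.

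Libraries held 4593914 to 9295245 counts. Levels are given as CPM (counts scaled to library size with TMM factors) within a gene, and as RPKM (CPM per kilobase of exon) between genes. Dgcr8 in total RNA was 101, 111 and 92.5 CPM in wild-type and 33.6, 34.1 and 32.0 CPM in KO libraries. In nascent RNA it was 107 to 118 CPM in wild-type and 71.2 to 86.8 CPM in KO, so the targeted gene was lower in each KO library, while reads remained. The 8 pluripotency markers, among them Pou5f1, Sox2 and Nanog, were detected, and their summed level in total RNA was 4951 to 5043 CPM in wild-type and 4837 to 4924 CPM in KO. In nascent RNA their sum was higher in KO, at 6520 to 7162 CPM against 5813 to 5973 CPM in wild-type. Single markers moved both ways. Their log2 changes in KO ran from -0.46 (Sall4) to 0.32 (Sox2) in total RNA. They ran from -0.22 (Sall4) to 0.52 (Sox2) in nascent RNA.

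Tests were limma-voom fits over 14033 genes with at least 3 CPM in at least 3 libraries, with Benjamini-Hochberg adjustment. The filter used CPM of the whole library without TMM factors, unlike the levels printed here. All 8 members passed it, Anxa1 and Anxa3 only through their KO libraries. On that scale Anxa1 reached 3 CPM in 2 wild-type libraries and Anxa3 in none. With TMM factors Anxa1 measured 3.14 to 3.90 CPM in wild-type total RNA, so it lay at the edge of the filter. A gene that passes only through the genotype where it is high had to differ, so for Anxa1, as for other such genes below, the change between genotypes is given without a p-value. A gene was called at adjusted p under 0.05 and a log2 change beyond 1 in either direction. In total RNA, 3 of the 7 tested members were called higher in KO (Anxa1, Anxa2 and Anxa4), against 9.33% of all tested genes. The filter favoured the call of Anxa1, so the counts, medians and calls of this paragraph that include Anxa1 are a description. Anxa2 and Anxa4 reached the filter in both genotypes. Anxa6 was the 1 member called lower, against 7.82% of all tested genes. In nascent RNA the same 3 were called higher and Anxa6 lower, against backgrounds of 9.5% and 5.27%. By adjusted p alone, 5 of 7 were higher and 1 lower in both RNA types, against 27.2% higher and 36.7% lower of all genes in total RNA, and 28.3% and 28% in nascent RNA. The median log2 change of the 7 was 0.84 in total RNA and 0.96 in nascent RNA, against -0.09 and -0.02 over all tested genes. The edgeR quasi-likelihood test made the same calls.

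**Figure D1:**
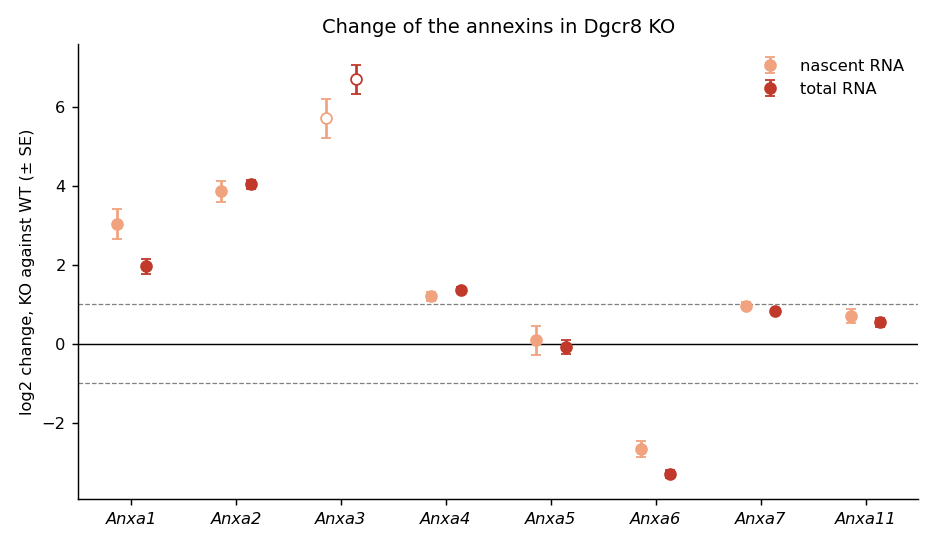
Log2 change in KO against wild-type for each annexin in nascent and total RNA, with the limma standard error as bars and dashed lines at a log2 change of 1 in either direction. Anxa3, for which the family was chosen, has open symbols and no test. Anxa1, Anxa2 and Anxa4 lie above the upper line in both RNA types, Anxa6 lies below the lower line, and Anxa5 lies near 0.

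Anxa3, a small annexin studied mostly in neutrophils and epithelial cells, spans chr5:96793385-96845966 on the plus strand (mm10). Its wild-type nascent libraries held 1, 2 and 1 counts and its KO nascent libraries 79, 87 and 96. In total RNA, the wild-type libraries held 4, 3 and 6 counts, and the KO libraries 581, 477 and 428. The groups were far apart in both RNA types, and the wild-type values lay at or close to a floor of 3 counts per library. Set against that floor, the mean level in nascent RNA was at least 30.8-fold higher in KO. In total RNA the mean rose from 0.562 to 63.1 CPM, a ratio of 112 that rests on those few wild-type counts.

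Anxa2, which forms a complex with the S100 protein S100a10 at the plasma membrane and links it to actin, lies at chr9:69453620-69491795 on the plus strand. In total RNA it measured 17.8, 19.8 and 13.7 CPM in wild-type and 248, 303 and 288 CPM in KO. Nascent RNA measured 3.38, 3.76 and 4.63 CPM in wild-type and 54.6, 66.8 and 52.9 CPM in KO. Each KO library exceeded each wild-type library more than 11.4-fold, and the log2 change was 4.04 ± 0.12 (SE, n = 3 per group, adjusted p = 1.42e-23 by limma) in total RNA and 3.87 ± 0.27 (adjusted p = 1.12e-13 by limma) in nascent RNA.

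Anxa1, known as a glucocorticoid-induced, anti-inflammatory annexin, lies at chr19:20373428-20390944 on the minus strand. In nascent RNA its wild-type libraries measured 0.643, 1.25 and 0.712 CPM, from 4 to 6 counts each, and its KO libraries 6.80, 9.16 and 6.28 CPM. In total RNA it measured 3.43, 3.90 and 3.14 CPM in wild-type and 13.5, 13.4 and 14.3 CPM in KO. The groups did not overlap. The fitted log2 change was 3.04 ± 0.39 in nascent RNA and 1.96 ± 0.19 in total RNA.

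Anxa4, an annexin of epithelial membranes, lies at chr6:86736840-86793584 on the minus strand. In total RNA it measured 40.9, 46.0 and 44.2 CPM in wild-type and 114, 112 and 115 CPM in KO. The nascent values were 17.4, 14.8 and 17.1 CPM in wild-type and 37.6, 36.4 and 40.5 CPM in KO. Its spread within groups was small beside the difference, with a log2 change of 1.37 ± 0.07 (adjusted p = 1.41e-17 by limma) in total RNA and 1.20 ± 0.12 (adjusted p = 2.04e-10 by limma) in nascent RNA.

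Anxa6, the annexin with a doubled core and a known binder of the Ras regulator Rasa1, was the member that fell. It lies at chr11:54979108-55033445 on the minus strand. In total RNA it measured 132, 143 and 151 CPM in wild-type and 13, 14.3 and 16.2 CPM in KO. Its nascent RNA measured 29.6, 29.1 and 35.0 CPM in wild-type and 5.40, 4.39 and 4.76 CPM in KO. The groups did not overlap. Its mean was 9.82-fold lower in KO in total RNA and 6.44-fold lower in nascent RNA, with log2 changes of -3.31 ± 0.10 (adjusted p = 6.76e-23 by limma) and -2.67 ± 0.21 (adjusted p = 1.81e-12 by limma).

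Anxa7 and Anxa11, which share long N-terminal tails and bind the calcium sensors sorcin and ALG-2, passed the adjusted p but not the limit on the fold change. Anxa7, at chr14:20455261-20480133 on the minus strand, measured 154, 162 and 162 CPM in wild-type and 290, 286 and 277 CPM in KO total RNA. The nascent libraries held 38.0, 32.0 and 39.8 CPM in wild-type and 69.6, 70.6 and 73.9 CPM in KO. Its log2 change was 0.84 ± 0.05 (adjusted p = 5.3e-15 by limma) in total RNA and 0.96 ± 0.09 (adjusted p = 6.65e-11 by limma) in nascent RNA, and without wild-type replicate 3 the nascent value was 1.01, past the limit. Anxa11, at chr14:25842156-25886804 on the plus strand, measured 16.7, 13.3 and 15.8 CPM in wild-type and 23.6, 21.4 and 20.8 CPM in KO total RNA. In nascent RNA it measured 8.36, 8.37 and 8.54 CPM in wild-type and 15.2, 13.7 and 12.6 CPM in KO. Its log2 change was 0.54 ± 0.11 (adjusted p = 9.35e-05 by limma) in total RNA and 0.70 ± 0.17 (adjusted p = 0.000819 by limma) in nascent RNA. Both genes were higher in each KO library than in each wild-type library.

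Anxa5, whose protein is widely used to stain phosphatidylserine on dying cells, lies at chr3:36448923-36475894 on the minus strand. In total RNA it measured 8.12, 8.05 and 11 CPM in wild-type and 8.35, 9.99 and 7.51 CPM in KO. In nascent RNA it measured 1.61, 3.97 and 3.74 CPM in wild-type and 2.60, 2.86 and 3.43 CPM in KO. The groups overlapped in both RNA types. The log2 change was -0.08 ± 0.18 (adjusted p = 0.715 by limma) in total RNA and 0.08 ± 0.36 (adjusted p = 0.86 by limma) in nascent RNA, from 10 to 21 counts per nascent library, and its sign differed between tests and when single replicates were left out.

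**Figure D2:**
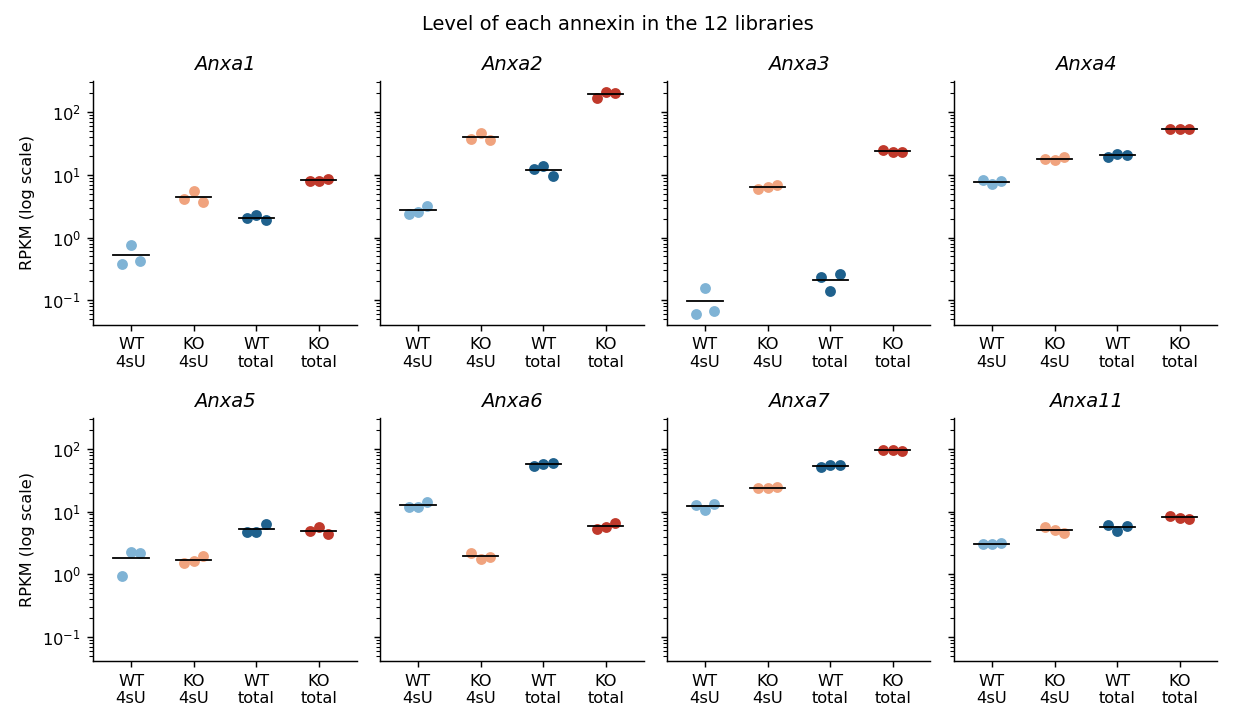
RPKM of each annexin in each of the 12 libraries on a log axis, with 3 points per group and a line at the group mean. In total RNA Anxa2 and Anxa3 lie far higher in KO than in wild-type, Anxa6 lies lower, and the Anxa5 groups overlap.

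Per length of exon, the order of the members differed between the genotypes. In wild-type total RNA, Anxa6 stood first at 57.1 ± 3.77 RPKM (SD, n = 3) and Anxa7 next at 53.7 ± 1.48 RPKM, with overlapping ranges. Anxa4 followed at 20.7 ± 1.22 RPKM and Anxa2 at 11.8 ± 2.13 RPKM. Anxa11 at 5.6 ± 0.65 RPKM and Anxa5 at 5.24 ± 0.99 RPKM overlapped, Anxa1 measured 2.09 ± 0.23 RPKM, and Anxa3 was last at 0.214 ± 0.066 RPKM. In KO total RNA, Anxa2 stood first at 193 ± 19.7 RPKM, which is higher than 98.2% of tested genes. Anxa7 followed at 96.0 ± 2.24 RPKM, Anxa4 at 53.9 ± 0.83 RPKM and Anxa3 at 24.0 ± 0.82 RPKM. Anxa1 at 8.20 ± 0.29 RPKM overlapped with Anxa11 at 8.05 ± 0.54 RPKM, and Anxa6 at 5.81 ± 0.64 RPKM overlapped with Anxa5 at 4.98 ± 0.73 RPKM at the bottom. Anxa6 thus stood first of 8 in wild-type and seventh in KO.

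The summed level of the 8 genes in total RNA was 157 ± 5.65 RPKM in wild-type and 394 ± 17.8 RPKM in KO. In wild-type total RNA, Anxa6 made up 36.5% ± 1.30 (SD, n = 3) of that sum, Anxa7 34.3% ± 0.31 and Anxa2 7.56% ± 1.43. In KO total RNA, Anxa2 made up 48.9% ± 2.86, Anxa7 24.4% ± 1.48 and Anxa6 1.47% ± 0.14. Anxa3 went from 0.137% ± 0.043 to 6.10% ± 0.49. In wild-type nascent RNA, Anxa6 at 30.6% ± 0.84 and Anxa7 at 30.2% ± 2.06 overlapped, and Anxa2 at 6.61% ± 0.66 overlapped with Anxa11 at 7.58% ± 0.50. In KO nascent RNA, Anxa2 made up 39.3% ± 3.27 and Anxa7 23.6% ± 1.40. These shares include Anxa3 and are a description.

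**Figure D3:**
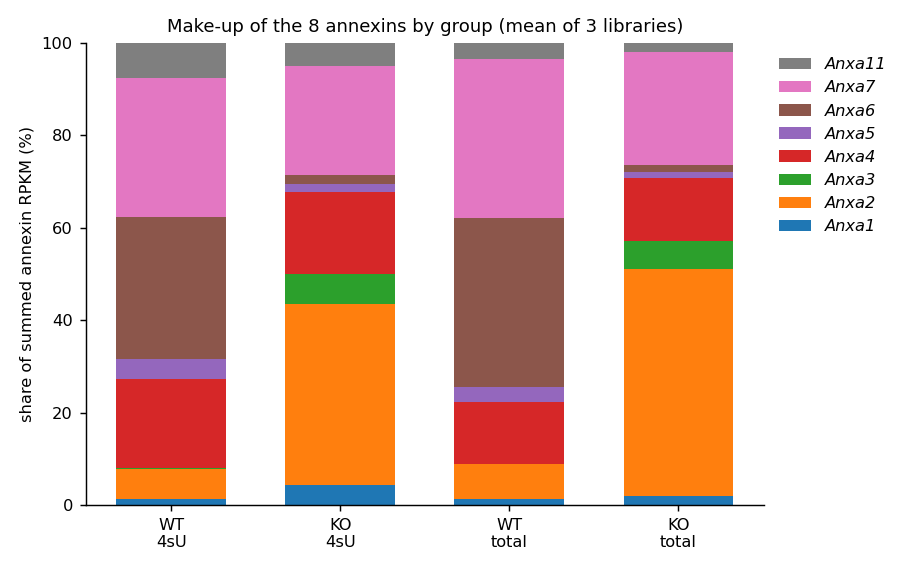
Share of each annexin in the summed RPKM of the 8 genes, in percent, for the 4 groups (bars are means of 3 libraries). Anxa6 and Anxa7 take the largest shares in wild-type, while Anxa2 takes 48.9% and Anxa6 1.47% in KO total RNA.

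The ratio of total to 4sU signal served as a relative measure of RNA stability, given as a log2 value relative to the median of tested genes. Each ratio divides libraries that share a replicate number, which are not known to come from 1 RNA sample, so the spread over ratios depends on that matching. In wild-type cells 6 of 8 annexins lay above the 75th percentile of tested genes. Anxa6 had ratios of 2.07, 2.18 and 2.01, with a mean at percentile 98.8. Anxa7 had ratios of 1.93, 2.22 and 1.92 (percentile 98.5), and Anxa2 had 2.22, 2.19 and 1.42 (percentile 98.0). Anxa11 was lower at 0.74 ± 0.18 (SD, n = 3, percentile 73.7). Anxa3 had 0.92, -0.22 and 0.97 from at most 6 counts per library, too few to place it. In KO cells 7 of 8 lay above the 75th percentile, and Anxa3, now with 79 or more counts per library, had ratios of 2.02, 1.88 and 1.75 (percentile 97.1). The ratio also moves with the uridine content and processing of a transcript, which was not adjusted for.

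The stability change, the difference between the total and nascent changes, was tested as the interaction term. No tested annexin was called, against 1.76% of all tested genes, and none passed the adjusted p alone in limma, against 16.1%. The unadjusted p was under 0.05 for 2 of 7, Anxa1 and Anxa6. The counts and the median of this paragraph that include Anxa1 are a description. The median change of the 7 was -0.16, against -0.09 over all tested genes. For Anxa6 the total RNA fell further than the nascent RNA, by -0.64 ± 0.23 on the log2 scale (adjusted p = 0.0553 by limma, 0.0406 by edgeR), and 6 of 16 alternatives passed the threshold, among them the replicate block by culture (0.0407). For Anxa1 the value was -1.08 ± 0.44, from 4 to 6 counts per wild-type nascent library. It is given without an adjusted p, since Anxa1 passed the filter through KO libraries only. Anxa2 (0.18 ± 0.29, adjusted p = 0.747 by limma) and Anxa4 (0.17 ± 0.13, adjusted p = 0.449 by limma), the other members called in total RNA, had changes smaller than 2 standard errors. Anxa3 had a value of 0.99 ± 0.62, given without a test, and 0.37 without wild-type replicate 2.

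**Figure D4:**
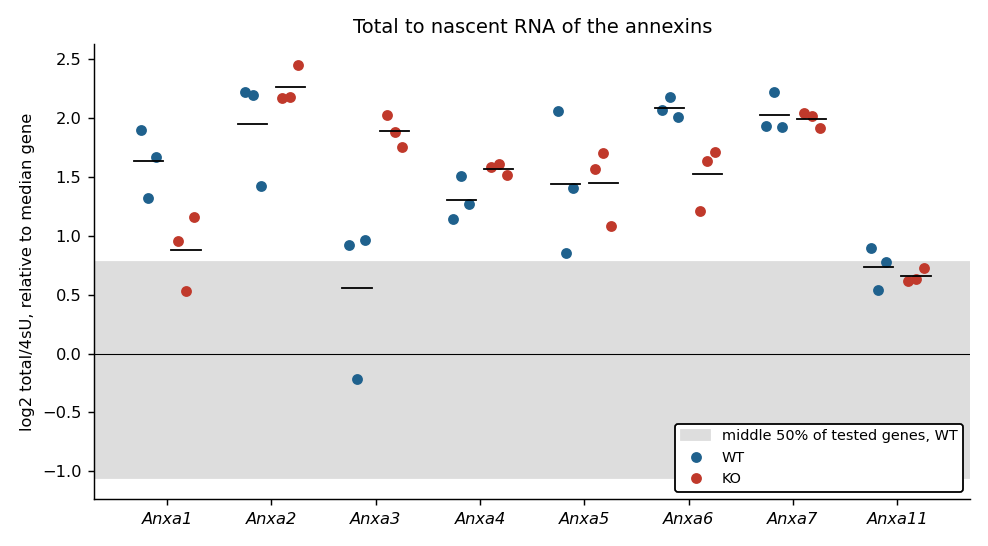
Log2 ratio of total to 4sU signal relative to the median tested gene, 1 point per replicate number with lines at the means, for wild-type and KO cells, where the grey band spans the range between the quartiles of tested genes in wild-type, from -1.06 to 0.78. The wild-type points of Anxa1, Anxa2, Anxa4, Anxa5, Anxa6 and Anxa7 lie above the band, while those of Anxa3 rest on few counts.

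Close to Anxa3, the extracellular matrix gene Fras1 ends 8656 bases upstream on the same strand (chr5:96373955-96784728). Fras1 held 0, 1 and 2 nascent counts in wild-type and 50, 35 and 36 in KO. In total RNA it held 1, 3 and 2 counts in wild-type and 104, 89 and 87 in KO. It was thus near absent in wild-type and present in each KO library, at least 14.3-fold higher in nascent RNA and at least 30.3-fold higher in total RNA, and it passed the filter through KO libraries only. Gm42603, which lies inside Anxa3 on the same strand with no shared exon base, held 2, 2 and 0 nascent counts in wild-type and 49, 46 and 41 in KO. Its total RNA counts were at most 1 in wild-type and 3 to 12 in KO. Reads of unspliced Anxa3 RNA and of Gm42603 cannot be told apart there, so these counts add nothing to those of Anxa3. On the far side, Gm9484, 150239 bases downstream, went from 8, 11 and 17 to 26, 25 and 18 nascent counts, a fitted log2 change of 1.07 ± 0.35. It too passed the filter only through KO libraries, and it was not called under DESeq2 (0.97, adjusted p = 0.0595) or without wild-type replicate 1 (0.69, adjusted p = 0.121 by limma).

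**Figure D5:**
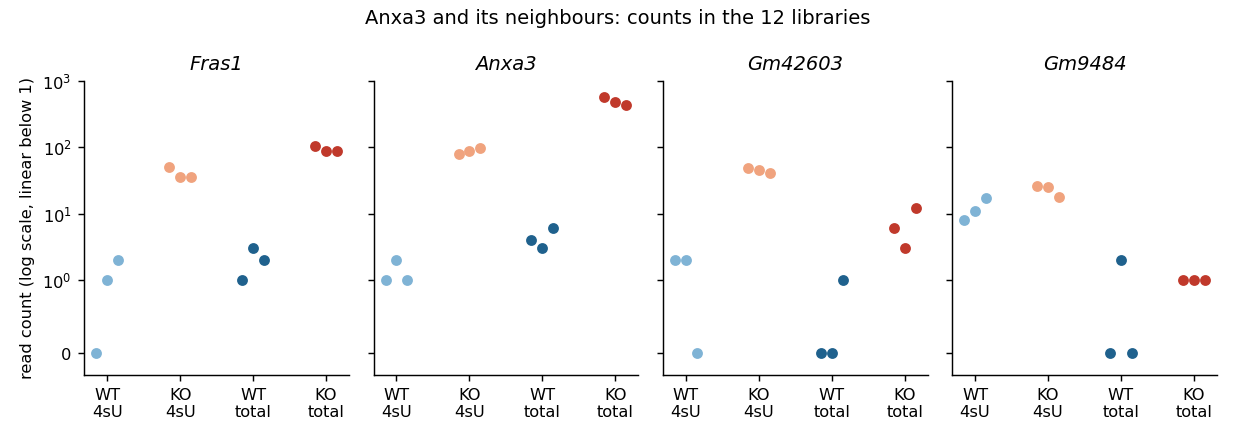
Read counts of Fras1, Anxa3, Gm42603 and Gm9484 in the 12 libraries, 3 per group, on a log axis that is linear below 1. Fras1 and Gm42603 hold at most 3 counts in each wild-type library and 35 or more in each KO nascent library.

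Of the 16 nearest tested neighbours of the 8 annexins, leaving out the overlapping Gm42603, 2 were called higher in total RNA and 3 in nascent RNA, against 9.33% and 9.5% of all tested genes. These were Fras1, Gm9484 (in nascent RNA) and Trpm6, and all 3 passed the filter through KO libraries only, so the counts are a description. Trpm6, 1480917 bases from Anxa1, had a mean 3.66-fold higher in KO total RNA. The neighbours of Anxa2, Ice2 (-0.25 ± 0.10, adjusted p = 0.0211 by limma) and Bnip2 (0.49 ± 0.06, adjusted p = 4.26e-08 by limma), and of Anxa6, Tnip1 (0.11 ± 0.09, adjusted p = 0.309 by limma) and Gm2a (-0.43 ± 0.10, adjusted p = 0.00023 by limma), were not called in total RNA.

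The genes whose log2 CPM followed that of Anxa3 most closely over the 12 libraries were the immunoproteasome subunit Psmb8 (Pearson r = 0.997), the ADP-ribosyltransferase Parp14 (0.997), the calcineurin regulator Rcan3 (0.997), the phospholipid scramblase family member Plscr2 (0.995) and the kinesin Kifc3 (0.994). The libraries share genotype and RNA type, so such values describe the same 4 groups. In total RNA, Psmb8 held at most 1 count in wild-type and 73 to 125 in KO, and Plscr2 held 7 to 12 in wild-type and 94 to 128 in KO. The wild-type counts were 38 to 55 for Parp14, 418 to 504 for Rcan3 and 90 to 114 for Kifc3. Their KO counts were 295 to 394, 1348 to 1717 and 528 to 772, in that order.

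Outside the list, the mouse family has Anxa8, Anxa9, Anxa10 and Anxa13. Anxa9, a divergent member, passed the filter through KO libraries only, with 8, 12 and 8 total RNA counts in wild-type and 31, 27 and 21 in KO. Its nascent counts went from 7, 2 and 5 to 13, 28 and 20. Anxa8 was under the filter and held 9, 21 and 28 total RNA counts in wild-type and 3, 6 and 4 in KO. Anxa10 held 2 counts in all and Anxa13 none.

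Of 14 genes for known annexin partners, 7 passed the filter and 2 were called higher in both RNA types, against 9.33% of all tested genes in total RNA and 9.5% in nascent RNA. The count in nascent RNA was 1 without wild-type replicate 3. Their median log2 change was 0.72 in total RNA, against -0.09 over all tested genes. S100a11, a partner of Anxa1, went from 25, 44 and 30 to 112, 84 and 63 total RNA counts (log2 change 1.37 ± 0.23, adjusted p = 4.53e-06 by limma). Egfr, the receptor kinase whose traffic Anxa1 takes part in, went from 102, 108 and 106 to 401, 374 and 298 (log2 change 1.75 ± 0.11, adjusted p = 4.25e-15 by limma). S100a10, the partner of Anxa2, had smaller changes than Anxa2, at 0.25 ± 0.08 (adjusted p = 0.008 by limma) in total RNA and 0.77 ± 0.14 (adjusted p = 1.69e-05 by limma) in nascent RNA. The total RNA change did not pass with limma-trend (adjusted p = 0.0604) or without wild-type replicate 3 (adjusted p = 0.064 by limma). Rasa1 had a log2 change of -0.04 ± 0.09 in total RNA (adjusted p = 0.68 by limma). Sri, the gene of sorcin, rose by 0.94 ± 0.10 (adjusted p = 6.51e-10 by limma), and Pdcd6, the gene of ALG-2, fell by 0.20 ± 0.07 on the log2 scale (adjusted p = 0.018 by limma). The formyl peptide receptor genes Fpr1 and Fpr2 had no counts. Also under the filter, S100a6 held 23 to 25 total RNA counts in wild-type and 8 to 18 in KO. Pla2g4a held 7 to 14 and 1 to 2 counts, and Plat 2 to 5 and 1 to 6, in the same order.

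Of 16 membrane repair genes, 13 passed the filter, with a median log2 change of 0.14 in total RNA, against -0.09 over all tested genes. In total RNA 2 were called higher and 1 lower, against 9.33% and 7.82% of all tested genes. Cavin1, a coat protein of caveolae, was called higher in total RNA (log2 change 1.60 ± 0.16, adjusted p = 2.17e-10 by limma), while the caveolin genes Cav1 and Cav3 had no counts. Ehd2, an ATPase at the neck of caveolae, went from 4, 4 and 7 to 43, 47 and 34 total RNA counts (log2 change 2.93 ± 0.40, adjusted p = 1.11e-07 by limma), with a nascent change of 0.66 ± 0.23 (adjusted p = 0.0155 by limma). That nascent change did not pass under DESeq2 (adjusted p = 0.0852) or without wild-type replicate 1 (adjusted p = 0.0934 by limma) or 2 (adjusted p = 0.0845 by limma). Dysf, the muscle membrane repair gene dysferlin, went from 34, 59 and 65 to 9, 12 and 4 total RNA counts and was the gene called lower, but it passed the filter through wild-type libraries only. In nascent RNA 1 gene was called higher (Cavin1) and 1 lower (Dysf), against 9.5% and 5.27%. The lower calls of Dysf are a description, since the filter favoured them. Among the copines, other calcium-dependent phospholipid binders, 3 of 9 passed the filter. Of these, 1 was called higher in total RNA, against 9.33% of all tested genes, and 2 in nascent RNA, against 9.5%. Cpne2 was called in both, at 1.59 ± 0.16 (adjusted p = 2.53e-10 by limma) in total RNA. Cpne5 was called in nascent RNA (1.11 ± 0.14, adjusted p = 9.45e-08 by limma). The nascent count of 2 was 1 without wild-type replicate 2. The 3 lists were chosen with earlier results of these data known.

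Annexins are abundant in other cell types that an ESC culture could hold, so markers of 3 of them were summed, with 8 genes each. In total RNA, fibroblast markers summed to 11 to 13.3 CPM in wild-type and 5.45 to 6.78 CPM in KO, and Dcn and Postn had no counts. Pdgfrb made up most of that sum, with means of 9.02 CPM in wild-type and 5.22 CPM in KO. Primitive endoderm markers summed to 99.9 to 110 CPM in wild-type and 40.0 to 48.2 CPM in KO. Most of that sum was the collagen gene Col4a1, with means of 93.6 CPM in wild-type and 32.8 CPM in KO, while Pdgfra went from 0.948 to 4.54 CPM. In nascent RNA Gata4 rose by 0.52 ± 0.16 on the log2 scale (adjusted p = 0.00585 by limma). Trophoblast markers summed to 10.1 to 11.9 CPM in wild-type and 8.69 to 9.81 CPM in KO, and Tpbpa had no counts. Each sum was lower in KO total RNA, and whether the annexin changes relate to such cells was not tested. In nascent RNA the trophoblast sum was higher in KO, at 76.0 to 80.3 CPM against 64.4 to 71.9 CPM. Tfap2a made up most of it, with means of 39.1 CPM in wild-type and 56.4 CPM in KO, while Gata3 went from 24.8 to 17.6 CPM. In such bulk libraries a change in the number of cells that express a gene and a change in RNA per cell cannot be told apart.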

How the data were processed

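The authors deposited raw counts, whole numbers of reads for each gene, for 12 libraries. Per the methods, file header and processing notes, adapters were trimmed with cutadapt 1.14, single-end reads were mapped uniquely to mm10 with STAR 2.5.3a and counted by strand with featureCounts 1.5.3 against GENCODE M14. The exon length column, used for RPKM, is also from the deposited table. Groups and replicate numbers came from sample titles. The source name of the knockout samples reads DDX8KO, while their titles and genotype say DGCR8 KO, which was used.

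Symbols came from GENCODE M21 (same build, 51274 of 51467 identifiers matched). CPM used the library size of tested genes times the TMM factor. The filter of 3 CPM used the whole library size without that factor. Tests used limma 3.58.1 (voom) over 12 libraries with library type, genotype and their interaction, edgeR 4.0.16 beside it and DESeq2 1.42.0 as an alternative, in R 4.3.3. Ratios used a prior count of 2. The fit was tested on simulated counts with the same spread for every gene and changes in KO total RNA only. At a log2 size of 1.5 the stability comparison called 80% of 50 changed genes, with 3 false calls among 13227 tested genes. The simulation held no nascent change and did not match the spread of single genes, so it does not vouch for the results above. Counting floors cover counting error only. Unique mapping can under-count near-identical genes.

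Named genes were the listed annexins, Dgcr8, other family members, list genes called in any contrast (with members of the lists discussed beside them, chosen after their values were seen), nearest tested neighbours and the 5 genes most like Anxa3. The members, lists and miRNA families were chosen with earlier results of these data known. Labelled RNA was divided into the 4sU and total fractions, and the labels do not state that equal numbers mark the same RNA sample. Deviations of same-numbered libraries were close to uncorrelated, so the main fit had no replicate block. No replicate pair agreed within sampling noise.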

Additional observations from a re-analysis of the deposited data

Results flagged for a closer look

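Among the 7 partner, 13 repair and 3 copine genes tested, the genotype effect differed between total and nascent RNA for 4. This was by the interaction term, at adjusted p under 0.05 in limma with 3 libraries per group. At the same threshold 16.1% of all 14033 tested genes passed, so the count is not particular to these lists. The difference on the log2 scale was 2.27 for Ehd2 (adjusted p = 0.000612 by limma), with total RNA rising more than nascent RNA. It was -1.35 for Cpne5 (adjusted p = 5.63e-05 by limma), whose nascent RNA rose while total RNA changed by -0.24 (adjusted p = 0.227 by limma). It was -0.53 for S100a10 (adjusted p = 0.02 by limma), which did not pass under DESeq2 (0.0644), RLE scaling (0.0663), upper-quartile scaling (0.0503) or no filter beyond 1 count (0.103), or without wild-type replicate 1 (0.113) or 2 (0.0821) or KO replicate 1 (0.113). It was 0.30 for Myof (adjusted p = 0.0136 by limma), which no longer passed without wild-type replicate 2 (0.0822) or 3 (0.0535), or without KO replicate 1 (0.0552) or 2 (0.0543).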

How the results depend on the processing

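Each annexin kept its side of the adjusted p threshold in total and nascent RNA under every alternative in which it was tested, and its direction except for Anxa5. The 4 calls in each RNA type held under each alternative in which the gene was tested, and that of Anxa1 is a description. When 3 CPM were asked of all 12 libraries, Anxa1, Anxa3 and Anxa5 were not tested. Anxa7 joined in nascent RNA without wild-type replicate 3. With no limit on the fold change, Anxa7 and Anxa11 joined in both. Anxa5 changed sign in nascent RNA under edgeR (-0.026) and DESeq2 (-0.093) and in stability under DESeq2 (0.047). Leaving out single replicates, its values ran from -0.18 to 0.08 in total RNA, -0.38 to 0.29 in nascent RNA and -0.47 to 0.23 in stability, and Anxa2 stability from -0.12 to 0.33. The cause was not tested. Anxa6 stability passed under 6 alternatives, with adjusted p from 0.00408 to 0.296 over all. With limma-trend, Anxa3 was 5.98 in total and 4.63 in nascent RNA.

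Counts of genes called in total, nascent and stability comparisons were 2407, 2073 and 247. With no filter beyond 1 count, 4002 and 3801 were called in total and nascent RNA. With 3 CPM in all 12 libraries, where fewer genes were tested, the counts were 1045, 837 and 115. With no fold limit they were 8971, 7898 and 2261. Deviations of same-numbered libraries correlated at -0.083 to 0.078 between genotypes and at 0.016 to 0.105 between 4sU and total RNA, so the fits had no block, while the ratios of total to 4sU still matched libraries by number. A replicate block on the number gave 2399, 2049 and 254 called genes, and Anxa6 stability was -0.62 (adjusted p = 0.0428 by limma). With the replicate block by culture, it was -0.64 (adjusted p = 0.0407 by limma). Ratios of total to 4sU moved by more than 1 SD in 14 of 122 comparisons and changed sign in none. Without length, Anxa7 ranked above Anxa6 in wild-type and above Anxa2 in KO. The few wild-type counts of Anxa3 and Anxa1 limit their fold values.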
